A study of Mus musculus with 6 samples.

Results

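The genes described here carry pyruvate into the mitochondrion, turn it into acetyl-CoA or oxaloacetate, and run the tricarboxylic acid (TCA) cycle. They were chosen by symbol, as a list of 32 genes, with earlier results of these data known. Of these, 31 had a probe set that the platform annotation gives that single symbol, out of 21996 genes named in this way and 33079 probe sets on the array. Mpc2, which pairs with Mpc1 in the pyruvate carrier, was not analysed here.

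The cells were adipocytes of C3H10T1/2, a mesenchymal line from the mouse that can form fat, taken at 9 days of differentiation, and their RNA was hybridised to single-colour Affymetrix arrays. All cultures had been exposed for 72 h to an adenovirus at a multiplicity of infection of 50; where those 72 h fell within the 9 days was not stated in the labels. In the scramble group (3 biological replicates) the virus carried a scrambled hairpin, and in the Zc3h10 shRNA group (3 biological replicates) a hairpin under a U6 promoter against Zc3h10, which encodes a protein with zinc fingers that binds RNA. The question put to the arrays is how silencing Zc3h10 alters transcript levels. Both groups therefore carry virus and a hairpin, and uninfected cells were not analysed here.

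In the mitochondrial matrix the pyruvate dehydrogenase (PDH) complex converts pyruvate to acetyl-CoA; PDH kinases switch it off by phosphorylation and PDH phosphatases switch it on again. Citrate synthase joins acetyl-CoA to oxaloacetate, and the cycle then oxidises the carbon back to oxaloacetate while reducing NAD and FAD for the respiratory chain. In fat cells part of the citrate leaves the mitochondrion to supply acetyl-CoA for fatty acid synthesis, so that pyruvate carboxylase has to refill the oxaloacetate that is drained.

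Transcripts of most listed genes of the cycle and of pyruvate entry were lower in the Zc3h10 shRNA cells. Of the 31 measured genes, 24 fell and 2 rose at an adjusted p under 0.05 (limma, Benjamini-Hochberg over all probe sets), and 5 did not pass. The 24 were 77.4% of the members. As the list was chosen with earlier results known, the shares given here describe it and are no test. Among all probe sets 9.79% changed, 5.48% falling and 4.31% rising, and among all named genes 12.1% changed. Of the named genes 6.6% fell and 5.51% rose, and among the 7851 named genes within the members' range of mean log2 intensity 14.2% fell and 11.6% rose. The share of members that rose, 2 of 31, was below that 11.6%. The median log2 change (Zc3h10 shRNA minus scramble) was −0.57 over the members and 0.013 over all named genes. Changes ran from −1.55 for Pdk1, a PDH kinase, to 0.55 for Got2, the mitochondrial aspartate aminotransferase. For 26 members all 3 shRNA arrays lay below all 3 scramble arrays, as for 15.2% of named genes, and for 3 members they lay above, as for 16.7%. The aspartate aminotransferases Got1 and Got2 were the members that rose, and Idh2, Pdk3, Pdp1, Idh3g and Glud1 did not pass; of these, Idh3g and Glud1 were lower on every shRNA array and Pdk3 was higher.

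The fold changes were moderate, and the count depended on single arrays. Of the 24 genes that fell, 15 passed without any single array in turn, and 5 had fallen at least 2-fold. With scramble replicate 2 or scramble replicate 3 left out, 15 genes passed in each case. Scramble replicate 1 gave the lowest value of its group for 26 of the 31 members, and without it 21 genes fell with a median of −0.62. Every member lay above 4.37 on the log2 intensity scale in both group means, the upper limit of the central range of 1379 olfactory and vomeronasal receptor genes, which are mostly silent outside sensory tissue.

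**Figure D1:**
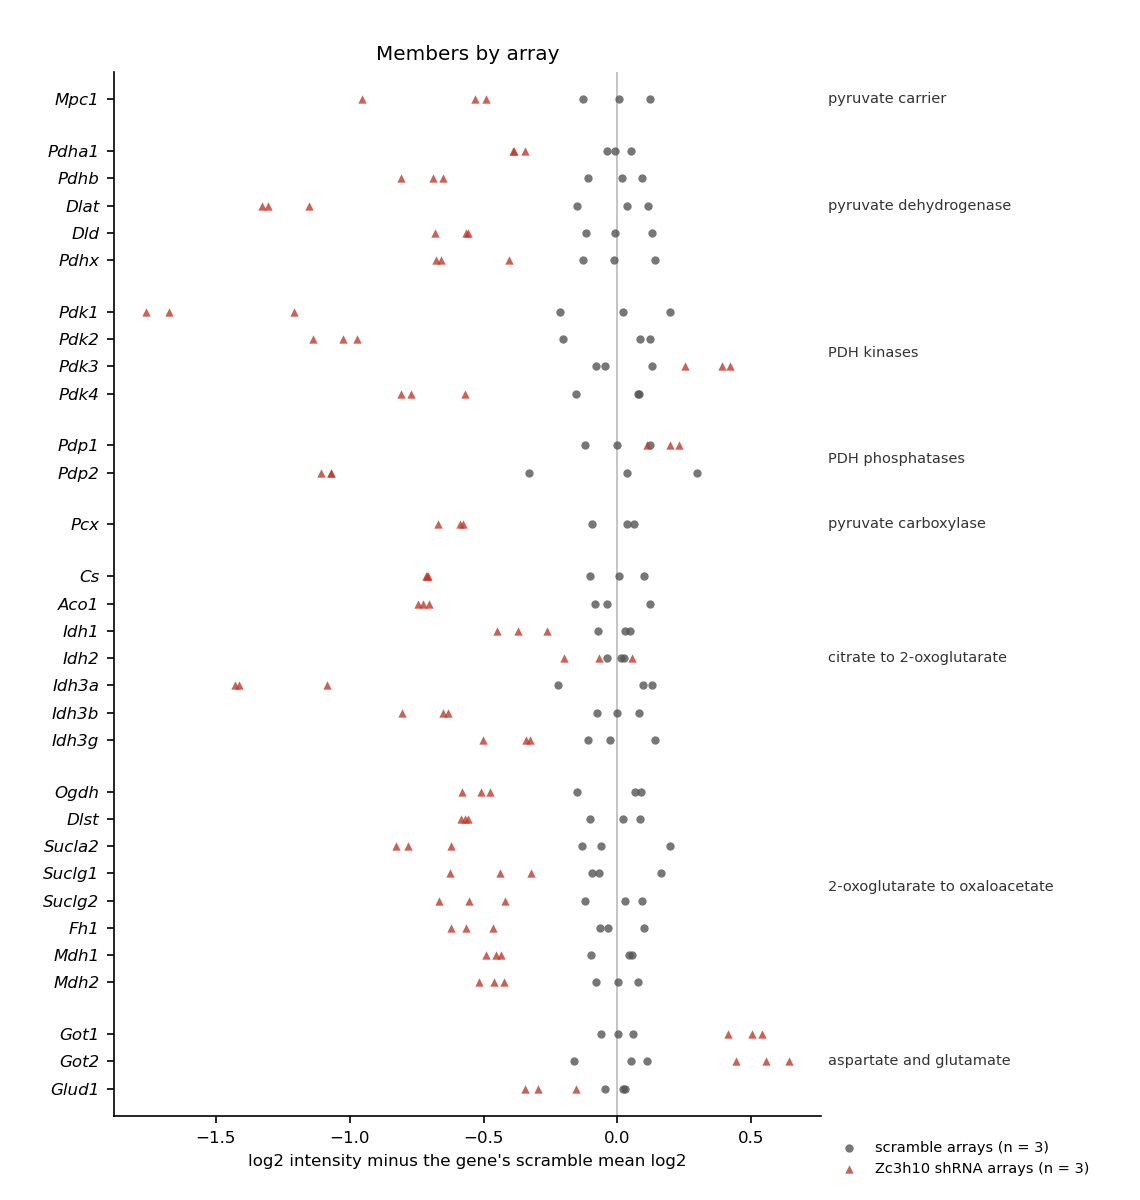
Log2 intensity of the 31 measured members on each array, relative to each gene's scramble mean, grouped by role, with grey circles for the 3 scramble arrays and red triangles for the 3 Zc3h10 shRNA arrays. The triangles lie left of all circles for 26 members and right of them for Pdk3, Got1 and Got2.

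Some facts of the whole array bear on these values. Over all probe sets, Pearson's r of log2 intensity was 0.992 to 0.994 for arrays of the same group and 0.985 to 0.988 for arrays of different groups. The targeted gene Zc3h10 was at −0.34 ± 0.17 (SE of the limma fit, adjusted p = 0.301), with scramble replicate 1 at 25.9 inside the range of the shRNA arrays, 22.9 to 30.2 intensity units. Of 9 measured markers of mature adipocytes, 8 fell; their summed intensity was 17521 to 19365 on the scramble arrays and 9614 to 10464 on the shRNA arrays, and leptin (Lep) lay within the receptor range. Among 9 progenitor and fibroblast markers Pdgfrb and S100a4 rose and Pdgfra fell, with sums of 11559 to 12508 against 12875 to 13190 and Cd34 within the receptor range. Of 4 bone markers 3 fell (sums of 167 to 180 against 93.7 to 106, with Bglap and Sp7 within the receptor range), and of 5 muscle markers Des fell (93.6 to 123 against 82.7 to 105, with Myod1, Ckm and Myh3 within it). None of 4 cartilage markers (786 to 949 against 816 to 872) or 3 immune markers (57.6 to 59.9 against 46.0 to 61.0) passed, with Acan, Comp, Ptprc and Adgre1 within the receptor range. The part of adipocyte marker loss in the fall of the members was not tested; in bulk RNA, fewer cells of a type and less RNA per cell cannot be told apart.

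Pyruvate crosses the inner mitochondrial membrane through a carrier of which Mpc1 is a subunit. Mpc1 (probe set 17284037) read 1500, 1783 and 1645 intensity units in scramble replicates 1, 2 and 3, and 847, 1166 and 1133 in the Zc3h10 shRNA replicates 1, 2 and 3. The groups did not overlap, and shRNA replicate 1 was the lowest of all 6. Mpc1 fell by 0.66 on the log2 scale (SE 0.14, adjusted p = 0.0232), but it did not pass without scramble replicate 2 (adjusted p = 0.0908), scramble replicate 3 (0.0725) or shRNA replicate 3 (0.0501). A dimmer probe set of Mpc1 gave −0.24 ± 0.14 (adjusted p = 0.397), and the mean of both was −0.45 (adjusted p = 0.0640).

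All 5 genes of the PDH complex fell, with Dlat, the E2 acetyltransferase that forms the core of the complex, well below the others. Dlat (probe set 17526861) read 709, 806 and 852 on the scramble arrays and 354, 314 and 318 on the shRNA arrays. The highest shRNA array thus lay below the lowest scramble array by a wide margin. Its change was −1.26 ± 0.10 (SE), a 2.40-fold fall (limma, adjusted p = 0.000697), with a 95% interval of −1.50 to −1.02. The other subunits had intervals that ended above that one: Pdhb, the E1 β subunit, was at −0.72 (−0.94 to −0.49). The E3 dehydrogenase Dld, shared with the 2-oxoglutarate complex, was at −0.60 (−0.83 to −0.37), and the E3-binding protein Pdhx at −0.58 (−0.84 to −0.31). Pdha1, the E1 α subunit whose serines the PDH kinases phosphorylate, changed least, at −0.37 (−0.56 to −0.18). These 4 intervals overlap in part, so their order is not settled. The difference between Dlat and the other subunits was not tested.

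Dlat, Pdhb and Dld passed without each single array in turn. Pdhx (adjusted p = 0.0169) did not pass without scramble replicate 2 (adjusted p = 0.0678), scramble replicate 3 (0.0560), shRNA replicate 2 (0.0649) or shRNA replicate 3 (0.0700). Pdha1 (adjusted p = 0.0264) was lost without any one array, at adjusted p values of 0.0542 without shRNA replicate 1 to 0.0990 without scramble replicate 2. Its arrays were nonetheless tight, at 953, 1015 and 973 against 771, 747 and 750.

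The enzymes that switch the complex off and on did not move as a group. Pdk1, a kinase known as a target of hypoxia signalling, had the largest fall of all members. It read 180, 160 and 136 on the scramble arrays and 68.1, 49.3 and 46.5 on the shRNA arrays, so that every shRNA array lay below every scramble array. The change was −1.55 ± 0.17, or 34.2% of the scramble level (adjusted p = 0.00146). With an offset of 32 added to each intensity before log2, Pdk1 was at −1.14, a smaller fall than Idh3a (−1.25) and Dlat (−1.19).

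Pdk2, the most widely expressed kinase, read 226, 283 and 276 against 128, 118 and 132, with no overlap. It fell by 1.04 (SE 0.11, 2.06-fold, adjusted p = 0.00147). Pdk4, a kinase induced by fasting and fatty acids, read 711, 836 and 836 against 534, 464 and 452. It fell by 0.72 (SE 0.11, adjusted p = 0.00581), less than the fall of either Pdk1 or Pdk2 as a point value.

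Pdk3, the remaining kinase, lay on the other side of the scramble level. Its arrays read 211, 183 and 187 against 258, 230 and 253, with all shRNA arrays higher. The change of 0.35 ± 0.10 missed the threshold (adjusted p = 0.0643) but met it under 5 of 12 alternatives, among them an intensity trend in the prior (0.0154). Pdp2, a PDH phosphatase, read 89.8, 108 and 69.6 against 40.6, 41.7 and 41.7 and fell by 1.08 (SE 0.15, 2.12-fold, adjusted p = 0.00391). Its scramble arrays were spread and its shRNA arrays were nearly the same, and the ordinary t statistic of limma's fit, which shares no variance between genes, gave an adjusted p of 0.0578. With an offset of 32 added before log2, its change was −0.71. The other phosphatase, Pdp1, read 183, 168 and 155 against 198, 182 and 193, so its groups overlapped, and its change of 0.18 had a 95% interval of −0.05 to 0.40 (adjusted p = 0.352).

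**Figure D2:**
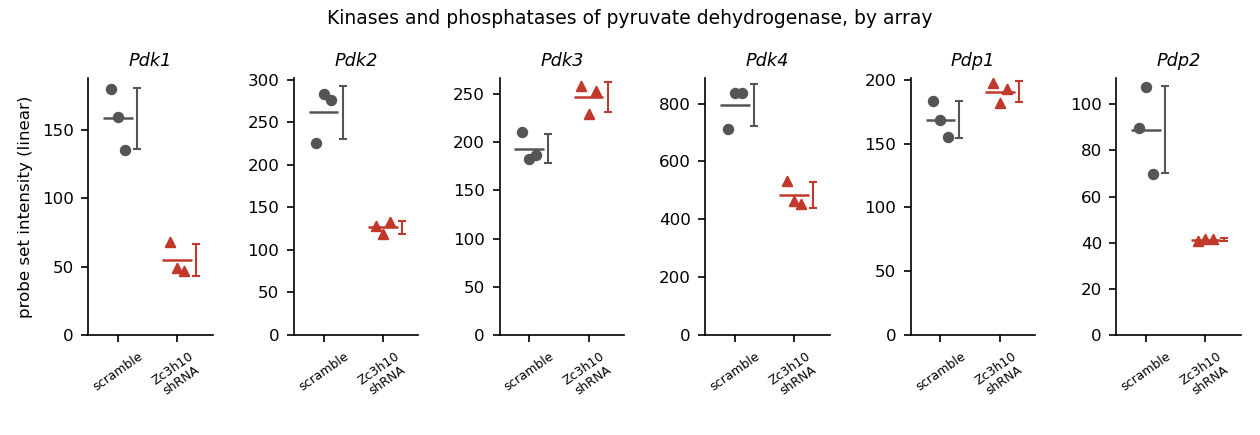
Probe set intensity of the 4 PDH kinases and 2 PDH phosphatases on each of the 3 scramble and 3 Zc3h10 shRNA arrays, on linear axes that start at 0 and differ between panels (horizontal lines, group means; bars, SD, n = 3). Pdk1, Pdk2, Pdk4 and Pdp2 are lower on every shRNA array, Pdk3 is higher on every shRNA array, and Pdp1 overlaps between the groups.

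Within these enzyme families the change itself was compared between genes, as the within-array log2 ratio of the pair, in 9 pairs. With 3 arrays against 3, a two-sided exact permutation test cannot give a p under 0.1, so no pair could pass. The Pdk1 to Pdk3 ratio moved by −1.90 (exact permutation p = 0.1, adjusted over the 9 pairs 0.18), with scramble arrays at 0.07, 0.10 and −0.17 around their own mean and shRNA arrays at −1.63, −1.93 and −2.15. The Pdp1 to Pdp2 ratio moved by 1.26 and the Pdk1 to Pdk4 ratio by −0.83, again without overlap (exact permutation p = 0.1, adjusted 0.18, for each). Pdk2 against Pdk4 gave −0.33, also without overlap (exact permutation p = 0.1, adjusted 0.18). Pdk1 and Pdk2 differed in their change by −0.50, and their groups overlapped (exact permutation p = 0.2, adjusted 0.3). With an offset of 32 added to each intensity before log2, Pdk1 minus Pdk3 was −1.45, Pdk1 minus Pdk4 −0.46 and Pdk2 minus Pdk4 −0.21. Pdk1 minus Pdk2 was then −0.25 and Pdp1 minus Pdp2 0.86.

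Pcx, the pyruvate carboxylase that makes oxaloacetate from pyruvate and so refills the cycle, read 1699, 1858 and 1894 against 1140, 1218 and 1206. It fell by 0.61 (SE 0.09, adjusted p = 0.00473), close to the median of the members. The fall held without each single array in turn.

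On the stretch from citrate to 2-oxoglutarate, 5 of 7 genes fell, and Idh3g and Idh2 did not pass. Citrate synthase, Cs, is the entry enzyme of the cycle. It read 3476, 3745 and 4000 on the scramble arrays and 2276, 2286 and 2278 on the shRNA arrays, a fall of 0.71 (SE 0.09, adjusted p = 0.00255). Aco1, the cytosolic aconitase that doubles as iron regulatory protein, fell by 0.72 (SE 0.09, adjusted p = 0.00256), from 1347 ± 102 to 814 ± 12.2 (SD, n = 3).

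The NAD-dependent isocitrate dehydrogenase of the cycle is built from the products of Idh3a, Idh3b and Idh3g. Idh3a, the catalytic subunit, read 951, 1211 and 1183 against 523, 417 and 412 and fell by 1.31 (SE 0.14, 2.48-fold, adjusted p = 0.00129). Its highest shRNA array, replicate 1, was well under its lowest scramble array. Idh3b fell by 0.70 (SE 0.09, adjusted p = 0.00343), with a 95% interval of −0.91 to −0.48 that does not reach the interval of Idh3a, −1.62 to −0.99. The difference between Idh3a and Idh3b was not tested. Idh3g, at −0.39 ± 0.10, did not pass (adjusted p = 0.0526), although its groups of 2388, 2834 and 2523 against 1820, 2051 and 2032 did not overlap. It passed under 8 of 12 alternatives, among them median scaling (adjusted p = 0.0421).

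Idh1 and Idh2 encode NADP-dependent isozymes. Idh2, the mitochondrial form, read 993, 1029 and 1038 against 889, 972 and 1058. The groups overlapped, and the change of −0.071 had a 95% interval of −0.29 to 0.15 (adjusted p = 0.750). Idh1, the cytosolic form that supplies NADPH for lipid synthesis, read 3325, 3617 and 3564 against 2564, 2706 and 2912 and fell by 0.36 (SE 0.09, adjusted p = 0.0465). That call was lost without any one array, with adjusted p values of 0.0717 without scramble replicate 1 to 0.150 without scramble replicate 2, and with quantile normalization (0.0625) or the ordinary t statistic (0.0664). The Idh1 to Idh2 ratio moved by −0.29 with no overlap between groups (exact permutation p = 0.1, adjusted over the 9 pairs 0.18).

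From 2-oxoglutarate onward all 8 members fell, within a narrow band of −0.74 to −0.46. Ogdh and Dlst, the E1 and E2 components of the 2-oxoglutarate dehydrogenase complex, fell by 0.52 (SE 0.10, adjusted p = 0.0139) and 0.57 (SE 0.09, adjusted p = 0.00604). Dlst was nearly constant within the shRNA group, at 744, 731 and 737, against 1019, 1110 and 1160 on the scramble arrays. Both sit below the scramble level on every shRNA array, as does Dld, their shared E3.

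Succinyl-CoA ligase pairs the α subunit of Suclg1 with an ATP-forming β subunit (Sucla2) or a GTP-forming one (Suclg2). Sucla2 read 447, 560 and 469 against 318, 276 and 285 and fell by 0.74 (SE 0.12, adjusted p = 0.00591). Suclg2 fell by 0.55 (SE 0.10, adjusted p = 0.0145), from 558 ± 42.0 to 382 ± 32.8 (SD, n = 3). The ratio of these β subunits changed by −0.20 and overlapped between groups (exact permutation p = 0.3, adjusted over the 9 pairs 0.386). Suclg1 fell by 0.46 (SE 0.12, adjusted p = 0.0450), from 230 ± 23.4 to 167 ± 17.4 (SD, n = 3).

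Fumarase, Fh1, fell by 0.55 (SE 0.09, adjusted p = 0.00866), from 703, 790 and 719 to 533, 478 and 497. The malate dehydrogenases Mdh1 (cytosolic) and Mdh2 (mitochondrial) fell by nearly the same amount, 0.46 (SE 0.09, adjusted p = 0.0145) and 0.47 (SE 0.09, adjusted p = 0.0136). Their ratio moved by 0.0091, with scramble arrays at −0.02, −0.02 and 0.04 and shRNA arrays at 0.08, 0.01 and −0.07 (exact permutation p = 1). A p of this size does not show that the changes are equal.

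Several calls in this stretch rested on single arrays. Dlst, Sucla2 and Fh1 passed without each array in turn, although Sucla2 missed the threshold with the ordinary t statistic (adjusted p = 0.0517). Ogdh did not pass without scramble replicate 2 (adjusted p = 0.0605), scramble replicate 3 (0.0572) or shRNA replicate 3 (0.0511). For Suclg2 the omission of scramble replicate 2 (0.0599), of scramble replicate 3 (0.0590) or of shRNA replicate 2 (0.0525) ended the call. Suclg1 passed only without shRNA replicate 1 (0.0487), with a largest adjusted p of 0.147 without scramble replicate 2. Mdh1 was lost without scramble replicate 2 (0.0626), scramble replicate 3 (0.0597) or shRNA replicate 3 (0.0599), and Mdh2 without scramble replicate 2 (0.0596) or scramble replicate 3 (0.0519).

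**Figure D3:**
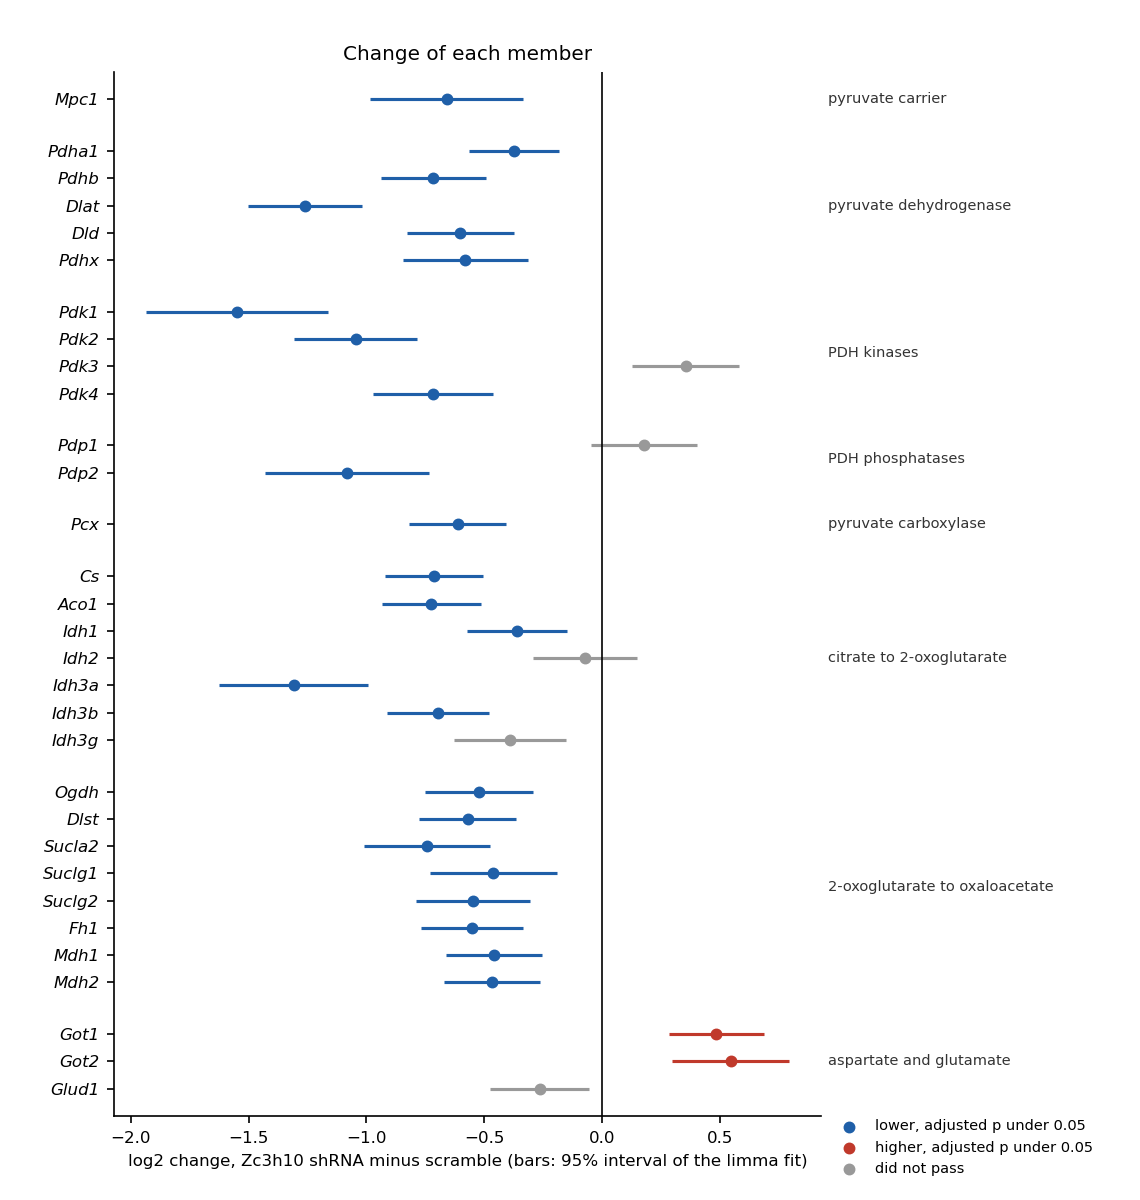
Log2 change (Zc3h10 shRNA minus scramble, 3 arrays per group) of each measured member with the 95% interval of the limma fit, grouped by role. Blue marks the 24 genes that fell, red the 2 that rose and grey the 5 that did not pass; Dlat, Pdk1 and Idh3a lie farthest to the left.

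The aspartate aminotransferases rose while the cycle enzymes they connect to fell. These enzymes exchange oxaloacetate and aspartate, Got1 in the cytosol and Got2 in the matrix. Got1 read 226, 246 and 237 on the scramble arrays and 315, 343 and 335 on the shRNA arrays. It rose by 0.48 ± 0.09 (1.40-fold, adjusted p = 0.0115) and passed without each single array in turn. Got2 (probe set 17512103) read 630, 544 and 658 against 827, 948 and 894 and rose by 0.55 ± 0.11 (1.46-fold, adjusted p = 0.0162). Both had every shRNA array above every scramble array.

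The call of Got2 is less firm than that of Got1. Leaving out 1 array raised its adjusted p to 0.0596 (scramble replicate 2), 0.0618 (shRNA replicate 3) or 0.0624 (shRNA replicate 2). A further probe set of Got2, at a scramble mean log2 of 3.88 within the receptor range, gave −0.067 ± 0.14 (adjusted p = 0.853), and the mean of both gave 0.24 (adjusted p = 0.235). Glud1, the glutamate dehydrogenase that feeds 2-oxoglutarate into the cycle, missed the threshold at −0.26 ± 0.09 (adjusted p = 0.127), with 1365, 1435 and 1429 against 1267, 1148 and 1109.

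Got1, Got2, Mdh1 and Mdh2 are also enzymes of the malate-aspartate shuttle, which moves reducing equivalents into the matrix with the help of carriers in the inner membrane. The oxoglutarate-malate carrier gene Slc25a11 fell by 0.40 (SE 0.08, adjusted p = 0.0194); omission of scramble replicate 2 (0.0722), scramble replicate 3 (0.0743), shRNA replicate 2 (0.0607) or shRNA replicate 3 (0.0703) ended that call. The aspartate-glutamate carrier genes Slc25a12 and Slc25a13 rose. All 3 carriers were singled out after their values were seen. Slc25a12 read 449, 414 and 438 against 511, 607 and 644 and rose by 0.43 ± 0.11 (adjusted p = 0.0454). That call was kept without shRNA replicate 1 only (0.0212) and reached 0.149 without scramble replicate 2; it was also lost with median scaling (0.0521). Slc25a13 read 25.6, 19.2 and 22.9 against 33.7, 36.4 and 39.3, near the receptor limit of 20.7 intensity units, and rose by 0.70 ± 0.13 (adjusted p = 0.0113; 0.0503 without shRNA replicate 3). With an offset of 32 the change of Slc25a13 was 0.33.

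**Figure D4:**
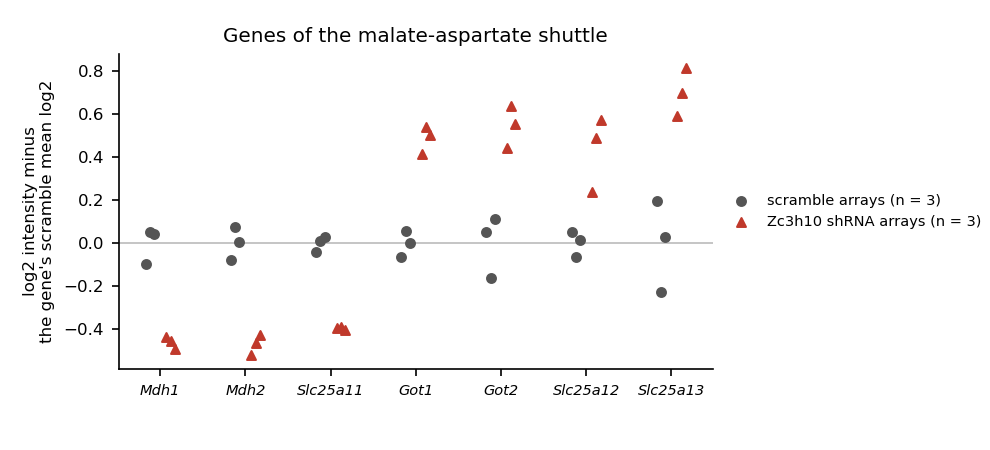
Log2 intensity relative to each gene's scramble mean for the enzymes and carriers of the malate-aspartate shuttle, with 3 scramble arrays (grey circles) and 3 Zc3h10 shRNA arrays (red triangles) per gene. Mdh1, Mdh2 and Slc25a11 lie below the scramble arrays and Got1, Got2, Slc25a12 and Slc25a13 above them.

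The connected genes were read in 6 lists, also chosen with earlier results of these data known, in which 58 of 61 genes were measured. Of these 27 fell, 46.6% against 6.6% of all named genes. Another 3 rose, a share near the 5.51% of all named genes, and the median change was −0.38. Among named genes within the members' range of mean log2 intensity 14.2% fell and 11.6% rose, but some connected genes lay below that range. Among further cycle enzymes and complex II, 3 of 10 genes fell (median −0.31). These were the succinate dehydrogenase subunits Sdhd at −1.04 ± 0.11, Sdhc at −0.62 ± 0.12 and Sdha at −0.39 ± 0.09. The remaining subunit, Sdhb, did not pass, at −0.27 ± 0.09 (adjusted p = 0.119), although its groups did not overlap. Dhtkd1, a relative of Ogdh, missed the threshold at −0.40 ± 0.12 (adjusted p = 0.0776). Sdhd read 633, 752 and 631 against 364, 305 and 310. Sdhc did not pass without scramble replicate 2 (adjusted p = 0.0617), scramble replicate 3 (0.0595), shRNA replicate 2 (0.0611) or shRNA replicate 3 (0.0686). Sdha passed only without scramble replicate 1 (0.0432), with a largest adjusted p of 0.113 without scramble replicate 2.

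Lipoate, the cofactor of Dlat and Dlst, is made and attached by the products of Lias, Lipt1 and Lipt2. Lias read 408, 459 and 446 against 232, 185 and 226 and fell by 1.04 (SE 0.11, adjusted p = 0.00154). Lipt1 fell by 0.83 (SE 0.11, adjusted p = 0.00342), from 76.3 ± 4.53 to 43.2 ± 5.27 (SD, n = 3), and was at −0.53 with an offset of 32. Pdpr, a regulatory subunit of PDH phosphatase, read 236, 264 and 257 against 123, 86.9 and 91.0 and fell by 1.35 (SE 0.14, 2.54-fold, adjusted p = 0.00129), as deep as Dlat and Idh3a. In all, 3 of 6 genes of this list fell (median −0.60), and Nnt, the proton-driven transhydrogenase, was at 0.30 ± 0.09 without passing (adjusted p = 0.0849).

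Of 11 genes that take carbon out of the cycle or bring it back 6 fell and 3 rose, with a median of −0.40. Slc25a1, the citrate carrier, fell by 0.76 (SE 0.09, adjusted p = 0.00221) and Acly, the cytosolic enzyme that cleaves the exported citrate, by 1.28 (SE 0.10, adjusted p = 0.000697). Pck1, the cytosolic phosphoenolpyruvate carboxykinase of glyceroneogenesis, read 65.3, 56.8 and 60.1 against 23.1, 18.4 and 22.7 and fell by 1.51 (SE 0.12, adjusted p = 0.000660). Its shRNA arrays lie about the receptor limit of 20.7, and with an offset of 32 the change of Pck1 was −0.80. The mitochondrial form, Pck2, read 137, 131 and 141 against 234, 235 and 260 and rose by 0.83 ± 0.09 (1.78-fold, adjusted p = 0.00148). Each of these 4 genes passed without each single array in turn.

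In the list of glutamate, glutamine and alanine genes 6 of 8 fell (median −0.74). They include Glul, glutamine synthetase, at −0.80 ± 0.09, the alanine aminotransferases Gpt (−1.02 ± 0.12) and Gpt2 (−0.76 ± 0.10), and Aldh4a1, which ends proline breakdown in glutamate, at −1.16 ± 0.12 (−0.71 with an offset of 32). In contrast to Got1 and Got2, both alanine aminotransferases fell. Of 10 genes of pyruvate and lactate supply 4 fell (median −0.40): the hexokinase Hk2 (−1.37 ± 0.10), the monocarboxylate transporter Slc16a1 (−1.28 ± 0.10), the acetyl-CoA synthetase Acss2 (−1.17 ± 0.20) and the lactate dehydrogenase subunit Ldha (−0.73 ± 0.10).

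Of 13 transcription factors and coactivators that act on these genes, 5 fell and none rose at an adjusted p under 0.05 (limma), with a median of −0.18. Those with the smallest p were Pparg, the adipogenic nuclear receptor, at −0.96 ± 0.12, Ppara at −0.64 ± 0.10, Gabpa, an ETS factor of many mitochondrial genes, at −0.56 ± 0.09, and the coactivator Ppargc1b at −0.74 ± 0.16. With an offset of 32 Ppara was at −0.36 and Ppargc1b at −0.45. Gabpa read 249, 274 and 288 against 189, 176 and 182, without overlap. Ppargc1b did not pass without scramble replicate 2 (adjusted p = 0.0870), scramble replicate 3 (0.0846), shRNA replicate 2 (0.0792) or shRNA replicate 3 (0.0936). Nrf1 did not pass, at 0.0082 (adjusted p = 0.974), nor did Hif1a, at −0.15 (0.423). The estrogen-related receptor genes Esrra (−0.18, adjusted p = 0.555), Esrrb (0.18, 0.651) and Esrrg (−0.12, 0.672) did not pass either. Both group means of Esrrb and of Esrrg lay under 4.37 on the log2 scale, the limit from the olfactory and vomeronasal receptor genes. The missing calls of Esrrb and Esrrg therefore cannot show whether these genes changed.

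**Figure D5:**
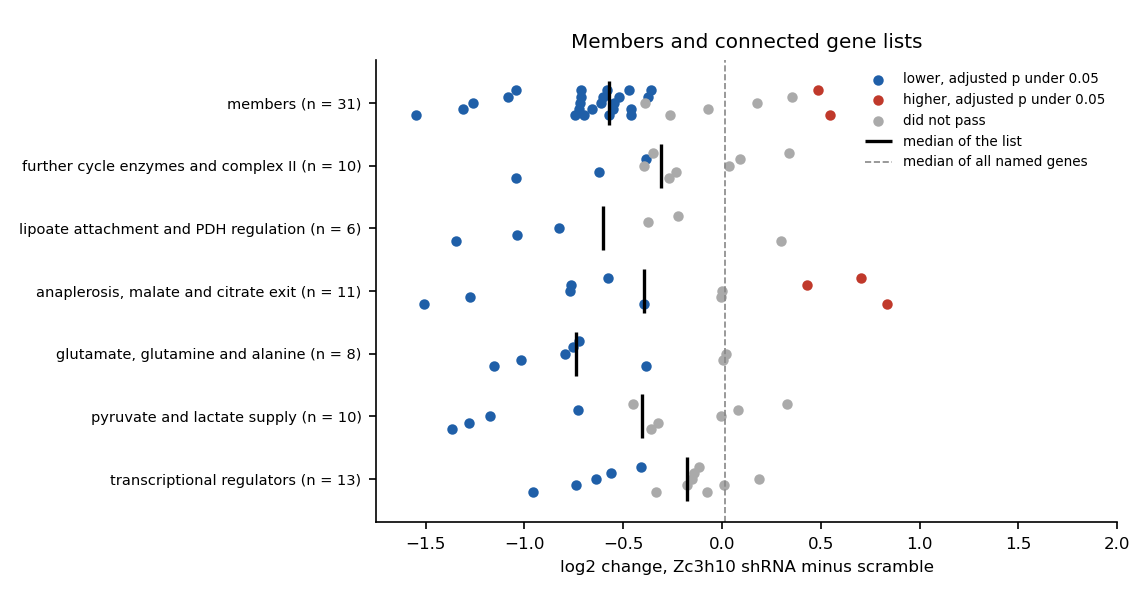
Log2 change (Zc3h10 shRNA minus scramble, 3 arrays per group) of the 31 measured members and of the genes in 6 connected lists, with 1 point per gene, a black line at each list's median and a dashed line at 0.013, the median of all named genes. Blue points passed as lower and red points as higher; the members' median is −0.57, and red points appear among the members and among genes of carbon exit and return.

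Promoter windows are shown for Dlat, the PDH subunit with the largest fall, and for Got1, which rose. Those of Idh3b and Dlst were picked because both genes fell and hold a match to the motif of Gabpa. A link between motifs and changes was not tested. Windows run from 250 bases before to 50 after the annotated start, 5′ to 3′ on the gene's strand, from RefSeq on GRCm38.p6. They lie at chr9:50659731-50660030 (minus strand, Dlat), chr2:130284402-130284701 (minus strand, Idh3b), chr12:85110583-85110882 (plus strand, Dlst) and chr19:43524556-43524855 (minus strand, Got1). Capitals mark matches, on either strand, to the 4 motifs searched: AAGGTCA (estrogen-related receptors), GCGCATGC (nuclear respiratory factor 1), CCGGAAG (GABPA) and ACGTG (hypoxia response).
Dlat: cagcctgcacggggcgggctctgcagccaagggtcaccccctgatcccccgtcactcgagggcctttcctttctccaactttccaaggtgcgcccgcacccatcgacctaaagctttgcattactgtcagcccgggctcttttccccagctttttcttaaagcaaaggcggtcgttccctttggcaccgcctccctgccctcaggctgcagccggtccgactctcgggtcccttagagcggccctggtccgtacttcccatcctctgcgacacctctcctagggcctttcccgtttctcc
Idh3b: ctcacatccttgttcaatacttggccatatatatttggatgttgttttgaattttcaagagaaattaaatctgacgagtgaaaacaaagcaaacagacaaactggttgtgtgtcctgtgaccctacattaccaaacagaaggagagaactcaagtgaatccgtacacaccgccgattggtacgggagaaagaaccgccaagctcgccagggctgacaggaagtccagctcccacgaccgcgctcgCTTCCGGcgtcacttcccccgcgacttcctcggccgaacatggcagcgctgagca
Dlst: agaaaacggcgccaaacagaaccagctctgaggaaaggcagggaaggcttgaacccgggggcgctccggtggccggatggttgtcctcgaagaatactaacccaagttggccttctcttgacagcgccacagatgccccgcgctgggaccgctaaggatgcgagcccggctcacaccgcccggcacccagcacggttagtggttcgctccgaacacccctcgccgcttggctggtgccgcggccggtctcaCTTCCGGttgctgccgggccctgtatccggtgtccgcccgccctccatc
Got1: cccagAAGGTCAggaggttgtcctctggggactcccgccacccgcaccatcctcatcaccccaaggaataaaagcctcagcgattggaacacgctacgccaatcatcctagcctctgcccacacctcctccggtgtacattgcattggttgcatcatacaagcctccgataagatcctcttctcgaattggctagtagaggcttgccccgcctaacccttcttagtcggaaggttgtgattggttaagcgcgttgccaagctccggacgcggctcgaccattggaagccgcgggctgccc

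The table held 40 windows for 30 of the 32 listed genes, several per gene where starts differ and some of those overlapping, and 32851 windows in all. CCGGAAG was found in 5 of the members' windows (12.5%, against 8.86% of all windows; 16.7% of member genes against 9.93% of all genes), in Dlst, Glud1, Idh3b, Idh3g and Mpc1. Of these genes Glud1 and Idh3g did not pass the test of expression. ACGTG was found in 13 windows (32.5% against 19.6%) of 8 genes (26.7% against 21.8%), Idh3g, Mdh1, Ogdh, Pcx, Pdhb, Pdk2, Pdk3 and Pdp2; 6 of the 13 are windows of Ogdh, which overlap in part. Neither window of Pdk1 holds it. GCGCATGC was found in 3 windows (7.5% against 2.71%; genes, 6.67% against 3.05%), of Glud1 and Ogdh, and AAGGTCA in 2 (5% against 4.72%; genes, 6.67% against 5.38%), of Got1 and Ogdh. The window of Dlat holds none of the 4 motifs. These are matches of letters in short windows and no measure of binding.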

How the data were processed

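For each of 6 arrays the authors deposited 1 intensity per probe set, linear as judged from the values. The submitters' processing notes name Affymetrix Expression Console and Partek 6.6. Background correction and normalization, not given in the sources used here, bear most on dim probe sets. Groups came from the replicate titles. Log2 intensities of 33079 probe sets were fitted with limma 3.58.1 in R 4.3.3 (two-sided; lmFit, then eBayes; degrees of freedom 4 residual and 4.00 prior), with Benjamini-Hochberg adjustment over all probe sets and a threshold of 0.05, from the 5% of the design text. Precision is limited by having 3 arrays in a group.

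Genes were named from the platform annotation: 23043 probe sets had 1 symbol, 1740 several and 8296 none here. The probe set with the highest mean stood for a gene. Transcripts of paralogs and pseudogenes can bind the same probes. Named are all measured members, Zc3h10, and the 4 genes of each connected list with the smallest p. Slc25a11, Slc25a12, Slc25a13, Sdhb, Nrf1, Hif1a, Esrra, Esrrb, Esrrg and markers were named outside this rule after their values were seen. Listed genes without a probe set of that single symbol, among them the markers Cfd, Ly6a and Runx2, were not analysed here. The members and lists were chosen with earlier results of these data known. For isozyme pairs the test was an exact permutation of the arrays, two-sided. The code was tested on simulated data. Alternatives were 3 scalings, an offset of 32, filters on dim probe sets, other variance estimates, array weights, a replicate block, other probe set rules and leaving out each array.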

Additional observations from a re-analysis of the deposited data

How the results depend on the processing

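All members that changed kept their direction under every alternative run except Got2, which was at −0.067 (adjusted p = 0.853) when the dimmest probe set stood for a gene. Of the 26 members that changed, 16 passed under all 12 alternatives to the processing, 16 passed without each single array in turn, and 14 did both. The members that fell numbered 22 to 26 under the scalings, the offset, the filters, the trend and the array weights, 16 with the ordinary t statistic, 20 with the replicate block and 15 to 22 with 1 array left out, where their median was −0.62 to −0.53. The members that rose numbered 3 with the offset, the filters and the trend. They numbered 1 with the ordinary t statistic, 1 when the dimmest probe set stood for a gene, and 1 to 2 with 1 array left out. In the connected lists the 3 rises became 5 without probe sets under the median level and 4 with the offset or the trend. They became 2 with median scaling or the replicate block, 1 with the ordinary t statistic and 1 to 3 with 1 array left out. Over all probe sets 3238 changed, 1972 with the ordinary t statistic, 2455 with the replicate block and 1807 to 2578 with 1 array left out. The cause of these shifts was not tested. The ordinary t statistic ended the calls of Mpc1, Pdhx, Pdp2, Idh1, Ogdh, Sucla2, Suclg1, Suclg2, Got2, Sdhc, Slc25a12, Slc25a13, Acss2 and Ppargc1b, at adjusted p values of 0.0513 to 0.143, and quantile normalization those of Idh1 (0.0625) and Suclg1 (0.0560). Where an array was left out, a group held 2 arrays. Arrays with the same replicate number in both groups correlated at 0.084, −0.0046 and 0.043 in their deviations from the group means. None was over 0.1, and 3 of the 6 arrays correlated best with their own number. With 3 arrays in a group, this check cannot exclude that replicates of the same number were prepared together. With the replicate block the adjusted p was 0.0733 for Pdha1, 0.0534 for Pdhx, 0.0796 for Idh1 and 0.0697 for Suclg1. It was 0.0756 for Sdha, 0.0592 for Slc25a11, 0.0877 for Slc25a12 and 0.0621 for Ppargc1b. No other call changed among the members and those named genes of the connected lists that were run. Markers, Sdhb, Nrf1, Hif1a, Esrra, Esrrb and Esrrg were not run. With 3 arrays per group, isozyme differences could not pass an exact test.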

Other observations

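Within the shRNA group some members hardly varied: Cs had an SD of 5.25 around 2280 intensity units, against 262 around 3740 in the scramble group, and Pdp2 an SD of 0.646 around 41.4, against 18.9 around 89.0 (n = 3 each). Pdp2 held the same value, 41.7, on shRNA replicates 2 and 3. Identical values on 2 arrays occurred for 40 to 73 of the 33079 probe sets in each of the 15 pairs of arrays, and for 47 in that pair.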
